A study of Mus musculus with 88 samples.

Results

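The oocyte homeobox (Obox) genes encode homeodomain proteins whose transcripts are found mainly in the oocyte and the early embryo, and 6 of them were followed here in single mouse oocytes: Obox1, Obox2, Obox3, Obox5, Obox6 and Obox7. Each gene was looked up by name in the study's gene table and otherwise through GENCODE M21, by the feature of matching strand whose span overlapped the gene best, with an overlap (shared length over joint length) of at least 0.3. Of the 6 genes, 5 were found, on 4 distinct features of the 38540 in the count table. All coordinates are on GRCm38, chromosome 7, with the strand in brackets. Obox1 and Obox2 shared 1 merged feature at chr7:15353960-15556866 (+), which is called the Obox1/Obox2 feature below, so their levels cannot be told apart. Its span overlapped that of Obox1 by 0.828, and the study's gene table names it Obox2, whose own span is a small part of it (0.0484). Obox5 lay at chr7:15750377-15759800 (+), Obox7 at chr7:14658815-14667766 (+) and Obox3 at chr7:15479073-15639902 (-). The Obox7 feature was found by its span (overlap 0.726), and its name elsewhere, Gm4745, is an older symbol of Obox7 in RefSeq. No feature overlapped the Obox6 gene at chr7:15833241-15839678 (-), and Obox6 was not analysed here.

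Homeodomain proteins are transcription factors that bind short DNA motifs through a helix-turn-helix fold. The Obox genes arose in rodents by repeated local duplication, which left a dense cluster of genes and pseudogenes on chromosome 7. Obox1, Obox2, Obox5 and Obox7 are known as maternal members whose transcripts the growing oocyte stores, and maternal OBOX proteins take part in the start of embryonic transcription after fertilisation. Obox3 is known as a member that is transcribed from the embryo's own genome, and Obox6 is known for its expression in early embryos and embryonic stem cells. A fully grown oocyte at the germinal vesicle (GV) stage is still arrested in meiotic prophase. As it matures, its chromatin passes from a configuration called non-surrounded nucleolus (NSN), in which genes are still transcribed, to a silent one called surrounded nucleolus (SN), after which the stored mRNA is no longer replenished.

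The similarity of the members bears on every value, because a read from a stretch that several copies share cannot be placed on one of them with certainty. The starts of the coding sequences in the GENCODE M21 transcripts show how close the copies are. The opening 90 coding bases follow, with capitals marking each base that differs from Obox1 at the same position.
Obox1: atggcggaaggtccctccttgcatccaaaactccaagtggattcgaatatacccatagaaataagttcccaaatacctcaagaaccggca
Obox5: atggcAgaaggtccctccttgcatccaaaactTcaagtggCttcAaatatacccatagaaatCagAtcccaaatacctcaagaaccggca
Obox7: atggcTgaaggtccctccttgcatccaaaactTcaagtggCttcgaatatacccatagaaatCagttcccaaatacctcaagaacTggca
Obox3: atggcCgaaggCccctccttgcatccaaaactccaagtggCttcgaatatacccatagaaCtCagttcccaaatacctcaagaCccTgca
The coding sequence of Obox2 had no difference from that of Obox1 over these 90 bases, Obox7 had 5, Obox5 had 6 and Obox3 had 7. They were read from the longest coding transcript of each gene, and the coding sequences begin at positions 15555162 (+), 15757537 (+), 14664037 (+) and 15627338 (-). Over the aligned coding sequence, Obox1 had 98.5% of its bases in common with Obox2, 95.4% with Obox5, 94.0% with Obox3 and 93.7% with Obox7. Obox5 and Obox7 were 96.0% identical. Obox6 was the most distant, at 77.9% identity with Obox1.

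An exact match over 100 bases was much rarer. Of all windows of 100 bases along the Obox1 transcript, 40.9% also occurred in a transcript of Obox2, and none occurred in any other gene. For Obox5 the share of windows found in another gene was 0.115%, and for Obox7 it was 2.69%, with Obox7 and Obox5 as each other's partner. The reads were trimmed before mapping, and a read shorter than 100 bases can be shared more often than these windows show. Along the Obox3 transcript the share was 15.9%, most of it in the pseudogene Obox3-ps3. Counts of primary alignments can therefore still exchange some reads between Obox5 and Obox7, and the Obox3 value can include reads of its pseudogenes.

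The members also share sequence ahead of their annotated starts. Promoter windows of 300 bases (250 before and 50 after the start, RefSeq, build GRCm38.p6) were matched by symbol for 5 of the 6 genes, all but Obox6. A run of 25 bases occurred in all 5 windows and in no other of the 32851 promoter windows of the table. Any part of this shared sequence in the Obox levels was not tested. The bases from that run to the annotated start, 100 at most, are shown for 4 members, with capitals at differences from Obox1.
Obox1: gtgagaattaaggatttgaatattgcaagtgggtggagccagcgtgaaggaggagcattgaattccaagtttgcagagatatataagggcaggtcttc
Obox5: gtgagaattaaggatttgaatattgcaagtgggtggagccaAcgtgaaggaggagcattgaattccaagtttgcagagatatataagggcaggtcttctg
Obox7: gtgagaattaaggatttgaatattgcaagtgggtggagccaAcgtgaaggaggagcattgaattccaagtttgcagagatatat
Obox3: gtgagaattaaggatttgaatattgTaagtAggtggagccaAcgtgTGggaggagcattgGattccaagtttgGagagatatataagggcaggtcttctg
These stretches lie at chr7:15547159-15547256 (+), chr7:15750260-15750359 (+), chr7:14659624-14659707 (+) and chr7:15639787-15639886 (-). Obox5 and Obox7 each differed from Obox1 at 1 base, and Obox3 at 7 bases. In the Obox2 window the run of 25 bases began 1 base before the annotated start, so its sequence is not shown. Of the motifs searched on both strands, GGATTA, the letters bound by homeodomains of the Otx and Obox kind, occurred in the Obox3 window alone among the 5 and in 7.06% of all promoter windows. The exact letters TATAAA likewise occurred in the Obox3 window alone and in 13.6% of all windows. The letters TATATAAG lie in a run of 42 bases that the windows of Obox1, Obox3, Obox5 and Obox7 share. That run occurred in no other promoter window. The homeodomain cores TAATTA and TAATTG, found in 1738 and 2628 of all windows (5.29% for TAATTA), occurred in none of the 5. The E-box CANNTG occurred in 4 of the 5, all but Obox3, and in 72.3% of all windows.

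The oocytes came from virgin C57BL/6Babr females, with no genetic change or treatment named. Young mice were 12 weeks old and gave 42 oocytes, and aged mice were 44 to 54 weeks old and gave 45 oocytes in the study's set of 87. The study predicted the chromatin configuration of each oocyte from the level of genes known to be higher in SN oocytes, so it is not independent of the transcriptome, and Obox levels by configuration are a description. The young set held 30 NSN and 12 SN oocytes, and the aged set 37 NSN and 8 SN oocytes. The oocytes of each age came from a few mice, fewer young than aged. The labels do not say which mouse an oocyte came from, so each age counts as 1 sample, no test between groups could be run, and each SD is over oocytes that share mice. Total counts were 1579196 to 8231046 in young and 976456 to 5448310 in aged oocytes. All 5 oocyte markers (Zp3, Gdf9, Ddx4, Kit and Bmp15) had counts in each of the 87 oocytes, with a summed level of 4960 to 13456 counts per 1000000 (CPM). Of 11 granulosa and cumulus markers 9 were found, and their summed level ran from 7.11 to 61.5 CPM in young NSN, 10.1 to 38.6 in young SN, 6.14 to 85.0 in aged NSN and 13.9 to 31.1 in aged SN oocytes, most of it Kitl (11.7 CPM) and Inha (5.87 CPM), while Foxl2 and Amh were at 0.0325 and 0.0811 CPM. Of 6 theca and stroma markers 4 were found, with Col1a1 at 0 and no oocyte above 7.60 CPM in sum, and the blood markers Hbb-bs and Hba-a1 were at 0 in every oocyte.

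The Obox1/Obox2 feature was the highest of the family. Its level over 42 young oocytes ran from 1170 to 2580 CPM with a median of 2006 CPM, and over 45 aged oocytes from 600 to 3292 CPM with a median of 2089 CPM. The mean was 1938 ± 370 CPM (SD, n = 42) for young oocytes and 2089 ± 587 CPM (SD, n = 45) for aged ones. Every oocyte had counts, so the transcript was present throughout, and the aged oocytes reached both lower and higher than the young ones.

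Obox5, a paralogue with its own feature and few shared windows, ran from 576 to 1080 CPM with a median of 865 CPM in young oocytes. In aged oocytes it ran from 452 to 1320 CPM with a median of 900 CPM. Obox7 was lower, at 74.7 to 199 CPM with a median of 133 CPM in young and 44.7 to 307 CPM with a median of 121 CPM in aged oocytes. The ranges of the ages overlapped for each of the 3 features, and the aged range enclosed the young one.

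Obox3 was close to absent. It had 45 counts in all young oocytes together, or 0.338 CPM (exact Poisson 95% interval 0.246 to 0.452 CPM), and 19 counts in all aged oocytes, or 0.168 CPM (0.101 to 0.262 CPM). A count of Obox3 was seen in 19 of 42 young and 9 of 45 aged oocytes. After each oocyte was thinned to 900000 counts, 6 young and 4 aged oocytes kept a count. Of the 19 aged counts, 1 came from the 15 oocytes numbered 41 to 48. Intervals of this kind cover counting error only, and the reads carry no molecular identifiers. Because the Obox3 feature lies opposite part of the Obox1/Obox2 feature, and whether reads were counted by strand is not stated in the sources used here, these few counts may belong to either.

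Levels of different genes were compared per kilobase of the longest coding transcript. On that scale the Obox1/Obox2 feature stood at 1311 CPM per kb in young oocytes (mean length of the Obox1 and Obox2 transcripts), Obox5 at 469 CPM per kb, Obox7 at 91.9 CPM per kb and Obox3 at 0.171 CPM per kb. In aged oocytes the order was the same, with 1412, 497, 89.2 and 0.0848 CPM per kb. The sum of the 4 features was 2943 CPM in young oocytes and 3139 CPM in aged ones. They held 99.9% of the counts of the 27 features in the 1180 kb from Obox7 to Obox6. The other 23 features, 8 of them named as Obox pseudogenes, had 420 counts in sum over the 87 oocytes, and 6 of them had none. The pseudogene Obox3-ps1 had 87 of those counts.

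**Figure D1:**
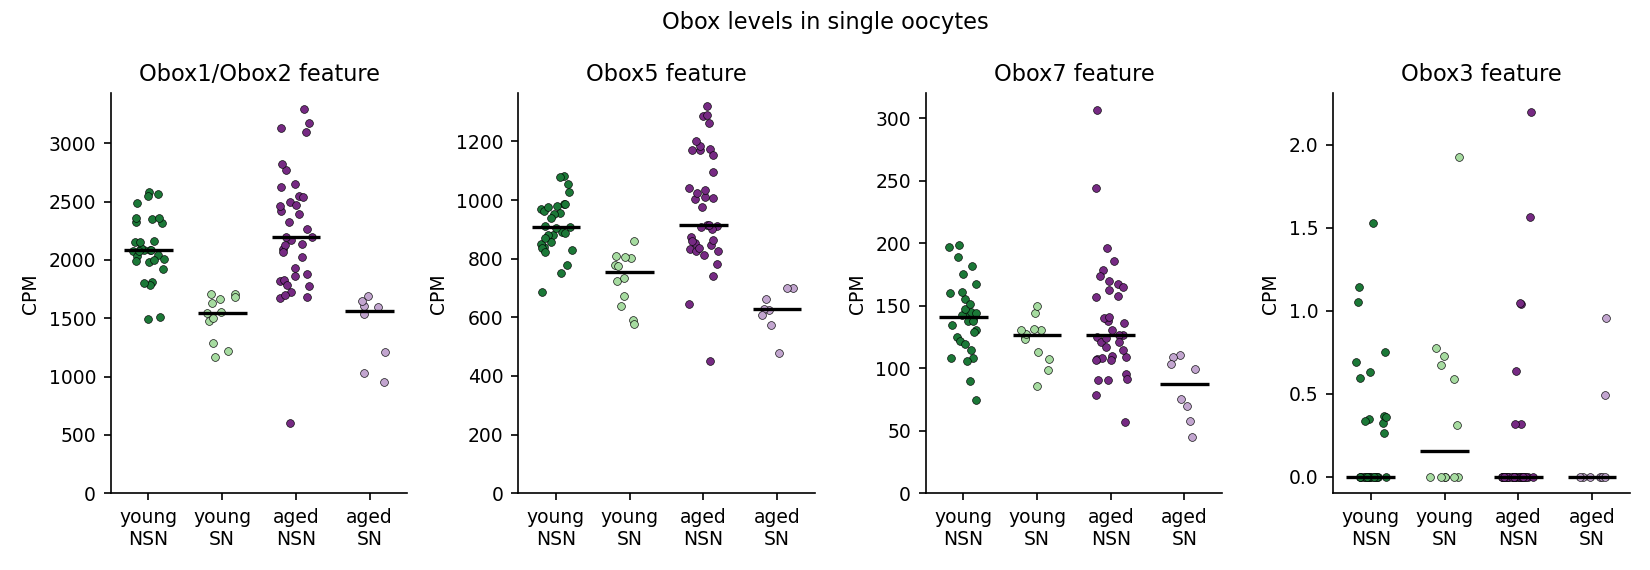
Level of each Obox feature in CPM (vertical axes, a separate scale for each panel) in every oocyte, by age and predicted chromatin configuration. Each point is 1 oocyte and each bar a group median. SN oocytes lie below the NSN median of their age for Obox1/Obox2 and Obox5, and the aged NSN oocytes spread the widest, from 600 to 3292 CPM for Obox1/Obox2.

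Whether Obox transcript levels differ between young and aged oocytes was asked of the summed counts of each age. Of the 4 features, 3 had at least 10 CPM in an age and at least 3 counts in each, and 0 of these 3 differed by the fold used (an absolute log2 ratio of at least 0.5), where 0.724% of 9397 features did. The Obox1/Obox2 feature was at 2097 CPM in aged against 1948 CPM in young oocytes, a log2 ratio of 0.11 (counting interval 0.10 to 0.11). The ratio was 0.08 for Obox5 (0.07 to 0.10) and -0.04 for Obox7 (-0.07 to -0.01), and the median over all features was -0.0044. The direction was not stable over oocyte names: in oocytes whose name ends in A the ratio was 0.21 for Obox5 and 0.26 for Obox7, and in the others it was -0.046 and -0.37. The mean difference of 152 CPM for Obox1/Obox2 was smaller than the SD over oocytes in either age, a description of spread and not a test. Among runs of consecutive oocyte numbers, 3 of each age, the aged runs held both the highest level of Obox1/Obox2 (2369 CPM, oocytes 41 to 48) and the lowest (1794 CPM, oocytes 25 to 31), with the young runs at 1847 to 2105 CPM between them. Without the run 41 to 48 the Obox1/Obox2 log2 ratio was -0.032 and that of Obox7 was -0.19. Obox3, below the level limit, had a log2 ratio of -1.01, with a counting interval of -1.86 to -0.21.

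**Figure D2:**
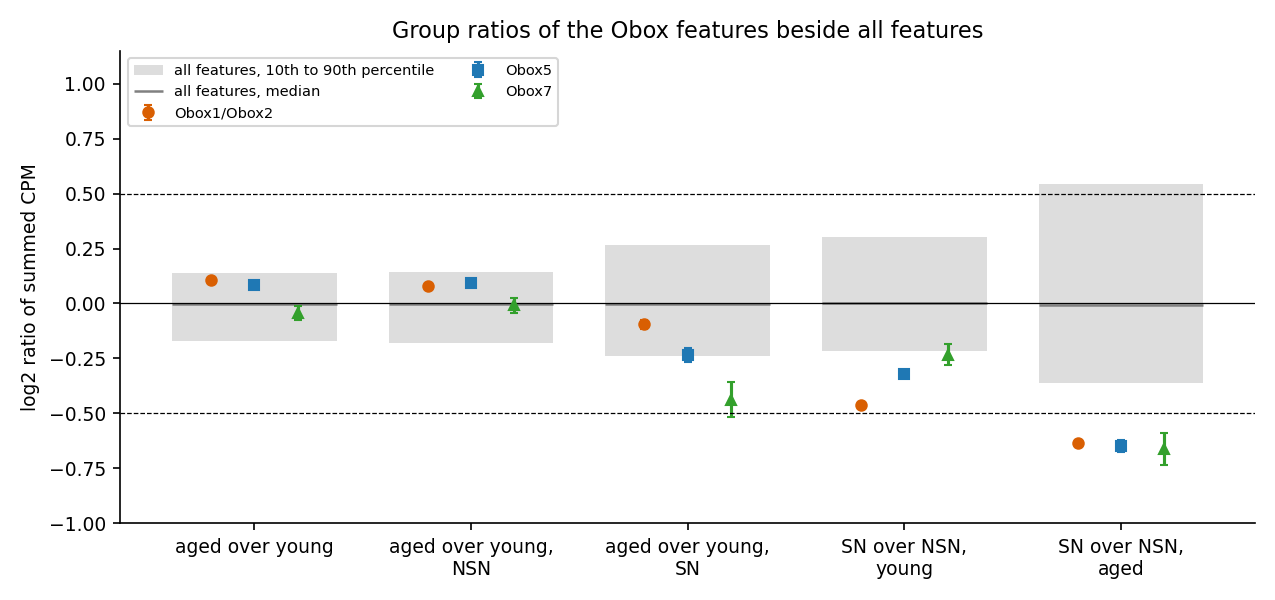
Log2 ratio of summed CPM (vertical axis) of 3 Obox features in 5 comparisons, with exact counting intervals, over the 10th to 90th percentile (grey) and the median of all features. Dashed lines mark log2 ratios of -0.5 and 0.5. The 3 features lie within 0.11 of 0 between ages over all oocytes and over NSN oocytes, below the 10th percentile for SN over NSN, and below -0.5 for SN over NSN in aged oocytes.

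The configurations were further apart than the ages, each taken over all its oocytes. In young oocytes the Obox1/Obox2 feature was at 2115 CPM in NSN and 1535 CPM in SN oocytes, a log2 ratio of -0.46 (counting interval -0.48 to -0.45). Obox5 was at 911 and 729 CPM (log2 ratio -0.32) and Obox7 at 142 and 121 CPM (log2 ratio -0.23). None of the 3 reached the fold, which 0.355% of 9586 features did in the lower direction, but only 0.636%, 2.98% and 8.40% of features had a lower ratio than Obox1/Obox2, Obox5 and Obox7. Over the 4 features together the log2 ratio of SN over NSN was -0.41.

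In single young oocytes the separation was clearest for Obox1/Obox2. Its level ran from 1489 to 2580 CPM with a median of 2083 CPM in the 30 NSN oocytes and from 1170 to 1711 CPM with a median of 1549 CPM in the 12 SN oocytes. Of the NSN oocytes, 28 of 30 lay above every SN oocyte. The same count was 21 of 30 for Obox5 and 10 of 30 for Obox7, so the groups overlapped more for the less abundant members. All 12 SN oocytes lay below the NSN median for Obox1/Obox2 and Obox5, and 10 of 12 did for Obox7.

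In aged oocytes all 3 features were lower in SN oocytes by the fold, against 3.50% of 9747 features in that direction. The Obox1/Obox2 feature was at 2238 CPM in NSN and 1439 CPM in SN oocytes, a log2 ratio of -0.64 (counting interval -0.66 to -0.62). Obox5 was at 972 and 620 CPM, a log2 ratio of -0.65 (-0.68 to -0.62). Obox7 was at 141 and 89.0 CPM, a log2 ratio of -0.66 (-0.73 to -0.59). The share of features with a lower ratio was 1.25%, 1.11% and 1.01%. Among aged oocytes whose name does not end in A, none of the 3 reached the fold, at -0.41 for Obox1/Obox2, -0.48 for Obox5 and -0.49 for Obox7. With the median over oocytes as the level, Obox1/Obox2 missed it at -0.49, and Obox5 and Obox7 were at -0.55 and -0.53. Markers of the oocyte itself lay the other way, with a median summed level of 12518 CPM in SN and 9759 CPM in NSN aged oocytes, and 11778 and 10537 CPM in young ones. The granulosa and cumulus markers had medians of 23.96 and 14.2 CPM in aged SN and NSN oocytes, and of 18.5 and 16.96 CPM in young ones. The part of these markers in the Obox difference was not tested. The counts are relative to each library and no spike-in is named, so less Obox mRNA cannot be told apart from more of other RNA, and the median ratio of all features was -0.01.

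The 8 aged SN oocytes fell into the 3 aged runs. In oocytes 26A, 27A and 28A, of the run 25 to 31, the Obox1/Obox2 feature was at 1213, 949 and 1029 CPM. In oocytes 12 and 15, of the run 9 to 16, it was at 1608 and 1648 CPM, and in oocytes 41, 46 and 47, of the run 41 to 48, at 1692, 1532 and 1596 CPM. The 3 lowest thus came from 1 run, and their names alone among the 8 end in A. Obox5 in the same 8 oocytes ran from 478 CPM in oocyte 28A to 700 CPM in oocyte 15. Obox7 ran the other way for some of them, with 110 and 109 CPM in oocytes 26A and 27A and 44.7 CPM in oocyte 15, the lowest of all 87 oocytes. All 8 lay below the aged NSN median for each of the 3 features. Of the 37 aged NSN oocytes, 34 lay above every SN oocyte for Obox1/Obox2, 35 for Obox5 and 25 for Obox7.

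Within each of the 6 runs the summed level was lower in SN than in NSN oocytes for all 3 features. The log2 ratio ran from -0.89 in oocytes 25 to 31 to -0.36 in oocytes 9 to 16 for Obox1/Obox2. For Obox5 it ran from -0.68 in oocytes 41 to 48 to -0.20 in oocytes 1 to 7, and for Obox7 from -0.87 in oocytes 9 to 16 and 41 to 48 to -0.05 in oocytes 1 to 7. The run 1 to 7 held a single SN oocyte. Among aged oocytes whose name ends in A the Obox1/Obox2 log2 ratio was -1.13, and among the others it was -0.41; what the runs and the letter stand for is not given in the labels, and their part in the difference was not tested.

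**Figure D3:**
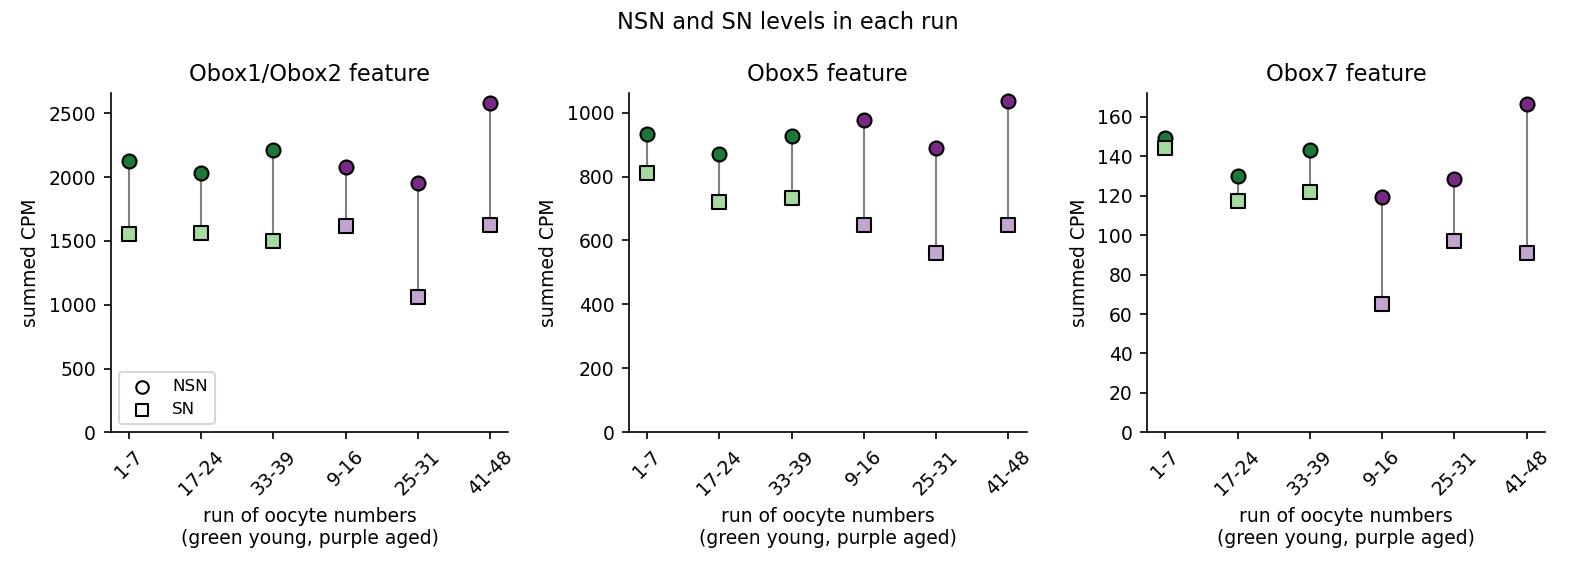
Summed CPM (vertical axes) of 3 Obox features in NSN (circles) and SN (squares) oocytes of each run of oocyte numbers, young runs in green and aged runs in purple. The square lies below the circle in all 6 runs for each feature, with the smallest gap for Obox7 in the run 1 to 7, whose SN value is 1 oocyte.

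Compared within a configuration on summed counts, the ages were closer in NSN than in SN oocytes. For Obox1/Obox2 the medians over oocytes were instead closer in SN oocytes. They were 1564 CPM in aged and 1549 CPM in young SN oocytes, and 2196 and 2083 CPM in aged and young NSN oocytes. Among NSN oocytes the log2 ratio of aged over young was 0.08 for Obox1/Obox2, 0.09 for Obox5 and -0.01 for Obox7. None of the 3 was past the fold, as were 0.826% of 9324 features. Among SN oocytes the ratios of summed counts were -0.09, -0.23 and -0.44, again with 0 of 3 past the fold, against 3.81% of 9703 features. With the median over oocytes as the level, Obox7 was past the fold, at 87.2 CPM in aged SN and 126.5 CPM in young SN oocytes. With the mean it was past it as well. For Obox7 the summed ratio of -0.44 was further from 0 than the ratio of SN over NSN in young oocytes, -0.23. For Obox7, 9 of the 12 young SN oocytes lay above every aged SN oocyte (85.9 to 150 CPM against 44.7 to 110 CPM). The mean Obox1/Obox2 level was highest in aged NSN (2237 ± 527 CPM, SD over oocytes, n = 37), then young NSN oocytes (2108 ± 274 CPM, n = 30). Young SN (1512 ± 191 CPM, n = 12) and aged SN oocytes (1408 ± 298 CPM, n = 8) followed. The mean differences of aged from young, 128 CPM in NSN and -104 CPM in SN oocytes, were smaller in size than the SDs. These SDs describe spread over oocytes that share mice and do not decide whether groups differ. The step from young NSN to young SN, a mean difference of -596 CPM, was larger than the SD of both. For Obox5 the step from young SN (730 ± 92.2 CPM) to aged SN (622 ± 72.6 CPM) was -108 CPM and larger than either SD. The Obox7 step from young NSN (141 ± 30.0 CPM) to young SN (122 ± 18.3 CPM) was -18.9 CPM and smaller than the SD among NSN oocytes. From young SN to aged SN (83.8 ± 25.3 CPM) the Obox7 step was -38.7 CPM and larger than either SD.

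The spread over all oocytes of an age was wider in aged than in young oocytes for each of the 3 features. The coefficient of variation of CPM was 28.1% in aged and 19.1% in young oocytes for Obox1/Obox2, 24.5% and 14.4% for Obox5, and 37.7% and 20.8% for Obox7. Dispersion, which is the square of that coefficient for normalised counts after counting noise is taken off, was 0.0826 in aged and 0.0362 in young oocytes for Obox1/Obox2, 0.0638 and 0.0209 for Obox5, and 0.158 and 0.0424 for Obox7. The log2 ratio of aged over young dispersion was 1.19, 1.61 and 1.90, beside a median of 0.46 over 12145 features, of which 83.5%, 93.6% and 96.7% had a lower ratio.

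Among NSN oocytes alone the log2 dispersion ratios were 1.90, 2.13 and 1.59 for Obox1/Obox2, Obox5 and Obox7, beside a median of 0.52. With the spread taken within runs of NSN oocytes, an alternative chosen after seeing the data, they were 1.57, 2.13 and 1.33, beside 0.46. In SN oocytes, likewise added after seeing the data, the ratio was 1.24 for Obox1/Obox2 and 1.74 for Obox7 but -0.43 for Obox5, beside a median of -0.30. The coefficient of variation of Obox5 was 11.7% in aged SN and 12.6% in young SN oocytes. Aged oocyte 27, an NSN oocyte, had the lowest level of Obox1/Obox2 (600 CPM) and of Obox5 (452 CPM) of all 87, while its Obox7 level was 141 CPM. The next lowest aged NSN oocyte stood at 1676 CPM for Obox1/Obox2. Oocyte 27 and single runs were left out of the dispersion after seeing the data. Without oocyte 27 the dispersion ratio was 0.95 for Obox1/Obox2 and 1.47 for Obox5. Without the run 25 to 31, which holds oocyte 27 and the 3 low SN oocytes, the ratio for Obox1/Obox2 was 0.55, beside a median of 0.40. Obox7 had its highest level, 307 CPM, in aged oocyte 41A, and without the run 41 to 48 its ratio was 0.85, beside a median of 0.32.

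**Figure D4:**
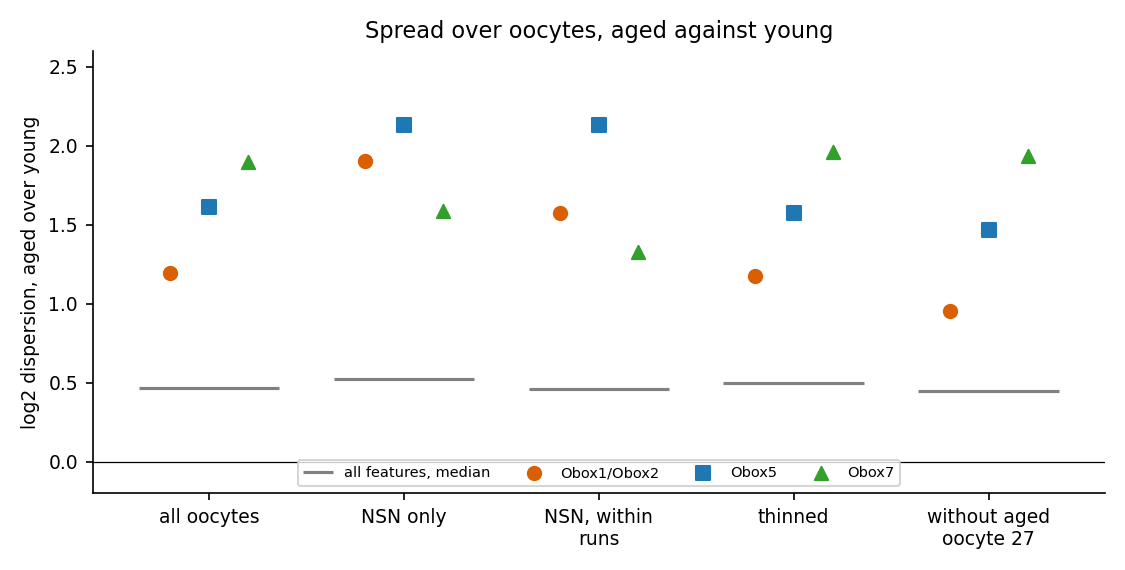
Log2 ratio of dispersion over oocytes, aged over young (vertical axis), for 3 Obox features and, as a grey line, the median of all features, under 5 settings. All 15 Obox values drawn lie above the line, with the lowest, 0.95, for Obox1/Obox2 without aged oocyte 27. Lower values of settings not drawn include Obox5 in SN oocytes, at -0.43 and below the median of -0.30. They also include Obox1/Obox2 without the run 25 to 31, at 0.55 beside a median of 0.40, and Obox7 without the run 41 to 48, at 0.85 beside 0.32.

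Members of the family varied together from oocyte to oocyte. After centring in each of the 4 groups, Spearman's rho over 87 oocytes was 0.70 between Obox1/Obox2 and Obox5, 0.41 between Obox1/Obox2 and Obox7, and 0.38 between Obox5 and Obox7. The oocytes share library preparation, and the features share related sequence, so these values are a description. Of 9394 features outside the Obox cluster, 1 had a higher rho with Obox1/Obox2 than Obox5 had, and 0 had a higher rho with Obox5 than Obox1/Obox2 had. Obox7 stood less apart: 28 features were closer to it than Obox1/Obox2 was and 56 closer than Obox5 was, and 148 and 177 features were closer to Obox1/Obox2 and to Obox5 than Obox7 was. The rho with the total count of the oocyte was 0.18 for Obox1/Obox2, -0.02 for Obox5 and 0.19 for Obox7. The ratio of Obox1/Obox2 to Obox5 counts in an oocyte had a median of 2.33 in young NSN, 2.13 in young SN, 2.30 in aged NSN and 2.30 in aged SN oocytes, and was lowest, at 1.33, in aged oocyte 27.

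**Figure D5:**
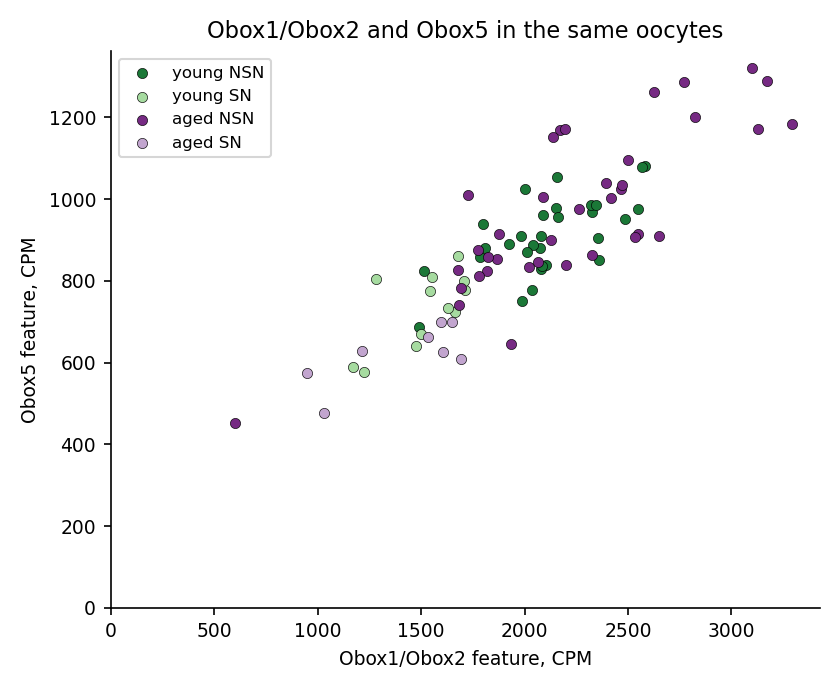
Obox5 level (vertical axis, CPM) against Obox1/Obox2 level (horizontal axis, CPM), each point 1 oocyte, coloured by age and configuration. The levels rise together within and between groups, SN oocytes lie at the lower left, and aged oocyte 27 is the point at 600 and 452 CPM.

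Outside the cluster, the 3 features most like each member were named by the same rho. For Obox1/Obox2 they were Calm2, which encodes the calcium sensor calmodulin (rho 0.71), Rsl1d1, a nucleolar protein of ribosome production (0.67), and Ptpn2, a tyrosine phosphatase (0.66). For Obox5 they were 1110018G07Rik (0.64), Ptpn2 again (0.62) and Pdcd6, a calcium-binding protein (0.60). For Obox7 they were Mrpl18, a protein of the mitochondrial ribosome (0.52), the unnamed feature TCONS_00075699 (0.51) and Brix1, a ribosome assembly factor (0.48).

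Other homeobox genes of the oocyte give a scale for these differences. Of a list of 21, 13 were found and 9 passed the level filter in each comparison. None of the 9 was past the fold for age, in either configuration, or for SN over NSN in young oocytes. For SN over NSN in aged oocytes 2 of the 9, Nobox and Zeb1, were past it, both in the higher direction (11.3% of features), and none in the lower direction in which the 3 Obox features lay. The 5 most abundant were Meis2, a TALE homeobox gene, at 581 CPM, the oocyte regulator Nobox at 376 CPM, the POU factor Pou5f1 at 185 CPM, Sebox, a maternal homeobox gene, at 160 CPM and the LIM homeobox gene Lhx8 at 145 CPM. Their log2 ratios of SN over NSN in young and aged oocytes were -0.27 and -0.30 for Meis2, 0.35 and 0.58 for Nobox, 0.08 and -0.18 for Pou5f1, 0.12 and 0.08 for Sebox and 0.10 and 0.01 for Lhx8. Over all 9 the median ratio was 0.10 for young oocytes and 0.01 for aged ones, beside -0.32 and -0.65 over the 3 Obox features.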

How the data were processed

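The RNA part of joint methylome and transcriptome sequencing of single GV oocytes was used. The authors trimmed reads, mapped them to GRCm38 by HiSat2 and counted primary alignments per feature of a transcriptome assembled from oocytes, and the deposited values are raw counts with no normalisation. The counting program and strand setting are not given in the sources used here.

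The members and gene lists were chosen with earlier results of these data known. Age came from the labels and configuration from the study's table. Group levels are summed counts scaled to CPM. All 6 members are named whatever their values, with at most the 5 most abundant genes of a homeobox list and the 3 features of highest rho for each member. No test was run. Exact 95% intervals (Poisson, or binomial for a ratio) cover counting error only. Dispersion used median-of-ratios size factors and features whose mean normalised count reached 10, and rho used log2(CPM + 1). Alternatives covered scaling (edgeR 4.0.16 TMM), thinning, level, runs and names. The software was numpy 2.4.6, scipy 1.17.1 and pandas 2.3.3 in Python 3.11.15. The steps were tested on simulated data. Methylation was not analysed here.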

Additional observations from a re-analysis of the deposited data

How the results depend on the processing

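None of the Obox features that passed the level limit was past the fold between ages under any of the 19 alternatives. In the main setting only 0.724% of 9397 features were past it, so this result does not set the Obox features apart from others. The summed log2 ratio of aged over young (0.09) was 0.22 for names ending in A, -0.035 for the others and -0.15 in SN oocytes, and it ran from -0.018 without the run 41 to 48 to 0.17 without the run 25 to 31. That of Obox1/Obox2 (0.11) turned to -0.0093 without the suffix A and -0.094 in SN oocytes, and ran from -0.032 without the run 41 to 48 to 0.20 without the run 25 to 31. SN over NSN stayed below 0 under every alternative: in young oocytes it ran from -0.45 to -0.38 over the runs left out, and in aged oocytes from -0.70 to -0.58, with -1.03 for suffix A and -0.43 without it. The cause was not tested.

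Dispersion was higher in aged oocytes in all settings run but SN oocytes, where Obox5 was lower. Against 1.19, 1.61 and 1.90 for Obox1/Obox2, Obox5 and Obox7, NSN oocytes gave 1.90, 2.13 and 1.59, and, all chosen after seeing the data, NSN oocytes within runs gave 1.57, 2.13 and 1.33, SN oocytes 1.24, -0.43 and 1.74, and leaving out aged oocyte 27 gave 0.95, 1.47 and 1.93. Leaving out a run, also chosen after, gave 0.55 to 1.52, 1.39 to 1.85 and 0.85 to 2.22. The rank correlation over oocytes of Obox1/Obox2 with Obox5, Obox1/Obox2 with Obox7 and Obox5 with Obox7 was 0.85, 0.53 and 0.49 when not centred. For the pairs with Obox7 it was 0.52 and 0.48 in young oocytes, and for Obox1/Obox2 with Obox7 it was 0.30 as Pearson's r and 0.51 when centred by run (chosen after seeing the data). No scaling moved the median of all features by over 0.1. Obox3, with 64 counts, is limited by depth. No paired analysis was possible because no oocyte number occurs in both ages.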

Other observations

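The study removed an oocyte as an outlier of a distance matrix. Aged oocyte 48A, which has no predicted configuration, was taken to be that oocyte and stands in none of the groups above. Its total count was 3588332. The Obox1/Obox2 feature was at 2997 CPM in it, Obox5 at 913 CPM and Obox7 at 115 CPM, and Obox3 had 0 counts. The ratio of its Obox1/Obox2 to Obox5 counts was 3.28, above the highest of the other 87 oocytes, 2.99 in an aged NSN oocyte.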
